A study of Arabidopsis thaliana with 12 samples.

Results

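This account describes 67 Arabidopsis thaliana genes that the array annotation names only by their locus code and whose signal was lower after staurosporine at each of 6 replicate numbers. Of 3439 probes in all, 457 carry a single gene with a locus code as symbol and a signal above 0 on all 12 arrays, and 453 of these remain once 4 genes that the selection leaves out are removed. These are counted below as 453 eligible genes, although AT2G25870 has 2 of the probes, which leaves 452 different genes. The deposited intensities were quantile normalized between arrays, and at each replicate number 1 to 6 the log2 ratio of the staurosporine array over the water array was taken. A gene was kept where all 6 ratios were below 0 and their mean was at most -0.5. The genes left out were AT1G68660, AT1G74470, AT3G52960 and AT2G04700, and 0 of these met the rule. The genes were thus selected on these log2 ratios, and every ratio below is a description of that choice and carries no test.

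The staurosporine group holds 6 arrays of RNA from wild-type plants, ecotype Columbia 0, kept in 2 µM staurosporine for 4 h, with 25 mM ascorbate (pH 5.5) for a further 4 h. The water group holds 6 arrays of plants of the same ecotype given water for 4 h in place of the inhibitor, with the same ascorbate treatment after it. Both groups received ascorbate, so a direct effect of the inhibitor and an altered response to ascorbate cannot be told apart. The labels name no tissue, no plant age and no number of plants behind an array, and do not say whether separate plants stand behind the 6 arrays of each group. In whole-plant or tissue RNA, fewer cells that carry a transcript and less of it per cell cannot be told apart.

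Staurosporine inhibits a wide range of protein kinases by taking the place of ATP in the active site. Ascorbate is an abundant water-soluble antioxidant, which ascorbate peroxidase uses to remove hydrogen peroxide. A locus code in place of a symbol means that the annotation had no gene name, not that the product is unknown. For 50 of the 67 genes a protein family or domain is given below as background, and 5 of these are known only by a domain of unknown function. For the other 17 no role is stated here. No RefSeq sequence or description of these genes was used here.

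Array medians of the deposited values ran from 0.351 to 0.486 in the staurosporine group and from 0.252 to 0.419 in the water group. Between 10.3% and 15.2% of the probes of a staurosporine array and between 12.6% and 14.2% of those of a water array were listed at 0. In each group, array 1 resembled array 2, array 3 resembled 4, and array 5 resembled 6, with Spearman correlations of 0.889 to 0.987. No value for arrays of different pairs is given beside these, so they do not show that paired arrays are more alike than others. Arrays 1 and 2, 3 and 4, and 5 and 6 are called number pairs here, and a mean ± SD is over 3 number pairs. Intensities are relative and have no absolute unit. A probe's intensity also depends on the probe, so an order of intensities is not an order of transcript amounts.

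The rule was met by 67 of the 453 eligible genes, or 14.8%. Over all 2584 probes above 0 on every array it was met by 400, or 15.5%, and over the 2131 of these that are not eligible locus-named genes by 333, or 15.6%. The mirrored rule, with all 6 ratios above 0 and a mean of at least 0.5, was met by 14.6% of the eligible genes and 14.7% of all these probes. The share of locus-named genes that were lower was thus near the share over all probes, and near the share that were higher. The mean log2 ratios of the 67 genes ran from -1.88 to -0.51 with a median of -0.85, against a median of -0.01 over the 453 eligible genes and -0.02 over the 2584 probes. In 23 genes the mean was -1 or lower, and in 44 it lay between -1 and -0.5.

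**Figure D1:**
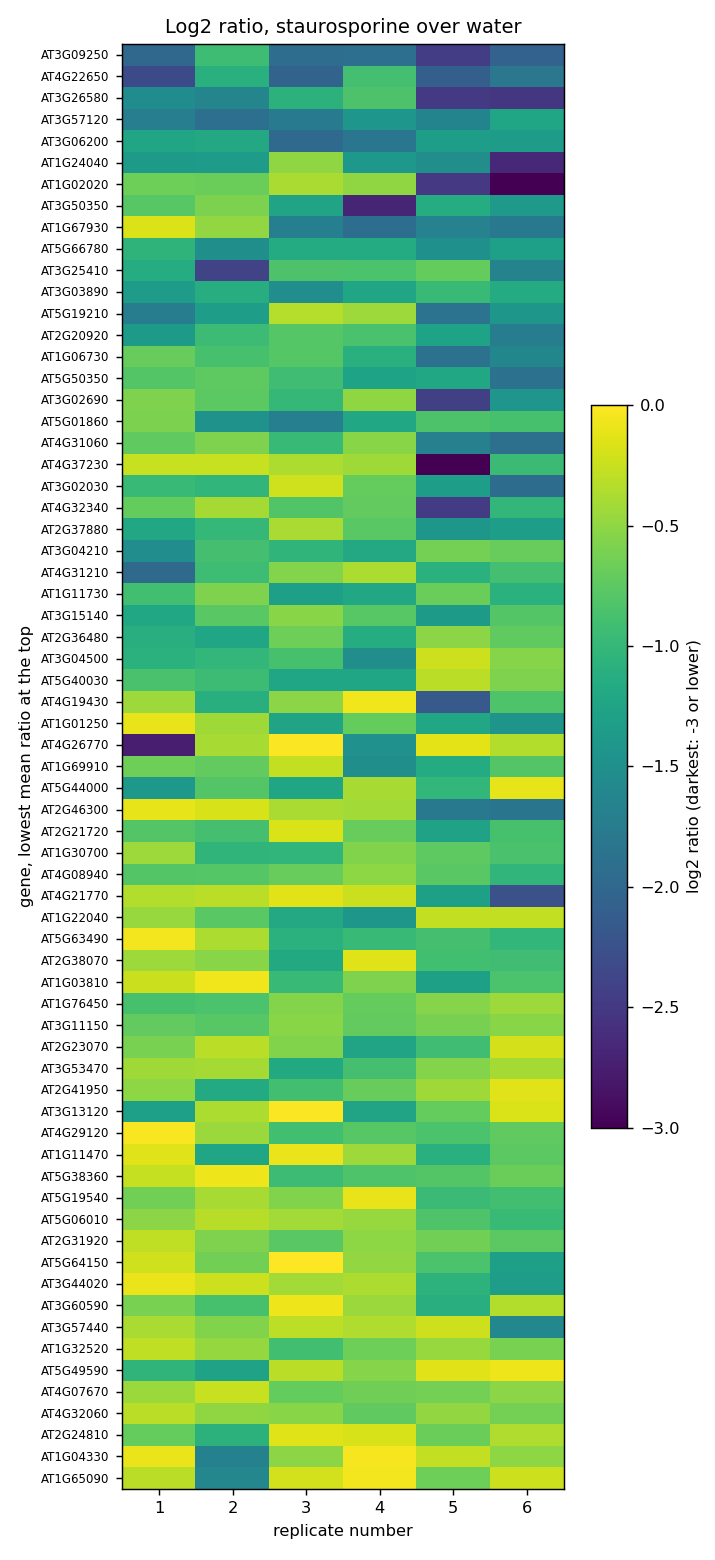
Log2 ratio of staurosporine over water for the 67 genes (rows, lowest mean at the top) at replicate numbers 1 to 6 (columns); darker cells are lower. Mean ratios run from -1.88 for AT3G09250 at the top to -0.51 for AT1G65090 at the bottom, and the lowest of the 3 pair ratios falls under numbers 5 and 6 for 33 genes.

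In 30 of the 67 genes (44.8%) every staurosporine array lay below every water array, where 9.25% of the 2584 probes did so. In the other 37 genes the groups overlapped, and the steady sign came from comparing arrays of the same number. Overlap is given throughout for the normalized values. Of the 30 genes, AT3G25410, AT5G01860, AT3G04210, AT4G31210 and AT1G11730 overlapped with the deposited values. So did AT3G15140, AT3G11150, AT3G53470, AT5G63490 and AT3G44020. The limma test over all 3439 probes placed 51 of the 67 genes past an adjusted p of 0.05 as lower, beside 11.8% of all probes. The rule used the same contrast, so nothing is read from either count. With each number pair averaged as 1 sample, 0 of the 67 genes and 0.145% of all probes passed as lower in limma. At an unadjusted p under 0.05 that fit placed 39 of the 67 genes as lower, beside 9.74% of all probes, or 35 beside 9.16% with the number pair as a block. Since the genes were selected on the same ratios, nothing is read from these counts either. The p-values reflect array-to-array spread alone, possibly of technical origin.

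Genes with the lowest ratios encode proteins of unrelated families. AT3G09250 has an NTF2-like fold, the fold of nuclear transport factor 2. Its lowest, median and highest normalized intensities were 0.220, 0.317 and 0.562 on the staurosporine arrays, against 1.07, 1.17 and 1.37 on the water arrays. The groups did not overlap, and the mean log2 ratio was -1.88 ± 0.40, or 3.67-fold lower. AT4G22650, a lipid transfer protein-like gene, had 0.224, 0.381 and 0.643 after staurosporine, against 0.917, 1.18 and 1.47 after water. Its mean log2 ratio was -1.71 ± 0.24. AT3G26580 encodes a protein of tetratricopeptide repeats, which bind other proteins. Its staurosporine arrays gave 0.441, 0.814 and 1.24 (lowest, median and highest) and its water arrays 2.21, 2.46 and 2.74. The groups stood well apart, but the depth varied, with log2 ratios of -1.59, -0.95 and -2.51 in number pairs 1 and 2, 3 and 4, and 5 and 6.

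AT3G50350, which carries a domain of unknown function (DUF1685), had 0.188, 0.571 and 0.748 after staurosporine, against 0.939, 1.22 and 1.41 after water. The groups did not overlap and the mean log2 ratio was -1.31 ± 0.64. AT1G24040 encodes a GNAT-type N-acetyltransferase, an enzyme family that moves acetyl groups from acetyl-CoA to amines. Its arrays gave 0.0499, 0.220 and 0.359 in the staurosporine group and 0.297, 0.489 and 0.716 in the water group, with overlap between them and a mean log2 ratio of -1.47 ± 0.58. AT1G02020, of the nitroreductase family, also overlapped, with 0.157, 0.414 and 0.564 after staurosporine and 0.321, 0.872 and 2.04 after water. Its mean log2 ratio of -1.40 ± 1.47 rested mostly on number pair 5 and 6, at -3.10, where the other pairs stood at -0.67 and -0.44.

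**Figure D2:**
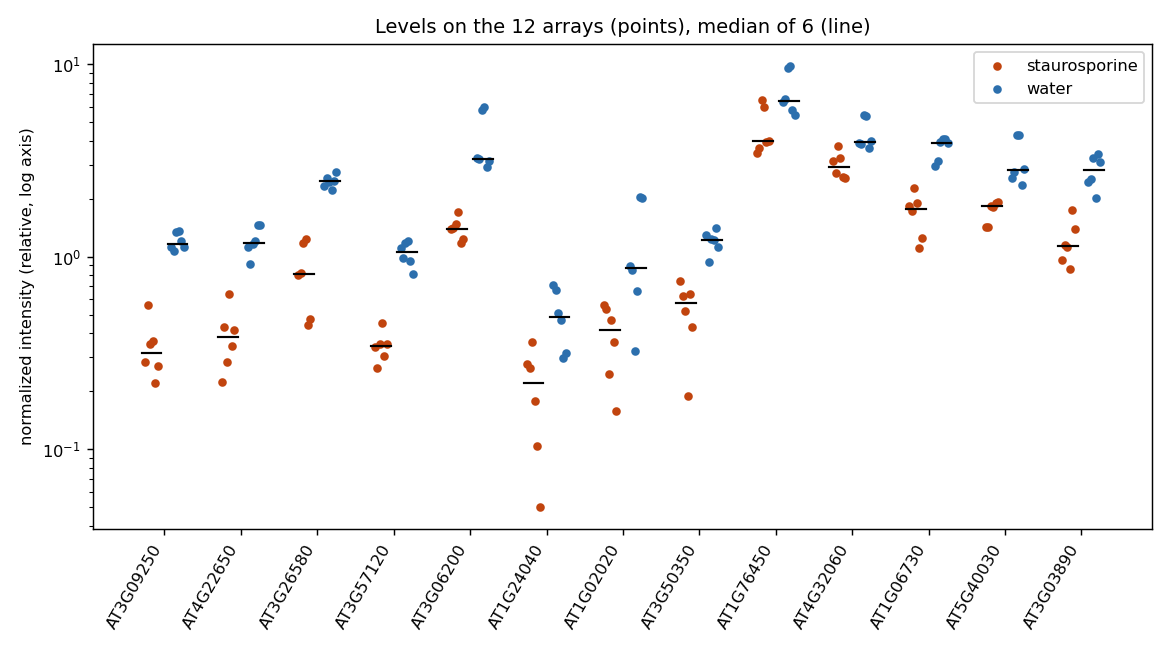
Normalized intensity (relative, log axis) on each of the 6 staurosporine arrays and, to the right, the 6 water arrays for the 8 genes of lowest mean ratio and the others of the 6 brightest genes; lines are medians of 6. AT3G09250, AT4G22650, AT3G26580, AT3G57120, AT3G06200 and AT3G50350 show no overlap, while AT1G24040 and AT1G02020 do.

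Protein kinases are the class that staurosporine acts on as an enzyme inhibitor, and transcripts of 4 protein kinase genes were among the 67. AT3G57120, of the protein kinase superfamily, was lowest, with intensities of 0.264, 0.345 and 0.451 after staurosporine, against 0.816, 1.05 and 1.21 after water. All staurosporine arrays lay below all water arrays and the number pairs were alike, with log2 ratios of -1.81, -1.59 and -1.43. AT5G40030, an AGC-type kinase, is among the brightest probes of the 67. It had 1.42, 1.83 and 1.92 after staurosporine, against 2.35, 2.81 and 4.31 after water, a mean log2 ratio of -0.86 ± 0.40 with no overlap. AT1G69910, of the protein kinase superfamily, stood at -0.85 ± 0.15, with staurosporine arrays from 0.291 to 0.682 and water arrays from 0.647 to 0.825. AT2G23070 encodes the chloroplast form of the catalytic alpha subunit of casein kinase 2, a kinase of many plastid proteins. Its staurosporine arrays gave 0.196, 0.304 and 0.425 and its water arrays 0.348, 0.447 and 0.608, a mean log2 ratio of -0.64 ± 0.24 with overlapping groups. How many kinase genes were eligible was not counted, so the 4 say nothing of kinases as a class.

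Of the 5 genes grouped as plastid proteins, AT1G76450 had the brightest probe of the 67. It encodes a PsbP-domain protein of the thylakoid lumen (PPD3), a relative of the PsbP subunit of photosystem II. Its staurosporine arrays gave 3.47, 3.98 and 6.52 and its water arrays 5.43, 6.47 and 9.80 (lowest, median and highest). The ranges overlapped, yet the ratio was even, at -0.86, -0.63 and -0.49 in the 3 number pairs, and numbers 3 and 4 were the highest arrays of both groups. AT3G03890, of a heme oxygenase-like FMN-binding family, had 0.861, 1.14 and 1.76 after staurosporine, against 2.02, 2.81 and 3.44 after water. The groups did not overlap and the mean log2 ratio was -1.23 ± 0.16, among the more even of the 67.

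The DEAD-box RNA helicase AT5G19210, of a family that unwinds RNA with ATP, stood at -1.19 ± 0.69. Its ratio was -0.39 in number pair 3 and 4, and -1.53 and -1.64 in the others. AT4G37230, a relative of the manganese-stabilising PsbO protein of photosystem II, had 0.0312, 0.350 and 0.412 after staurosporine, against 0.387, 0.487 and 0.533 after water. Its mean log2 ratio of -1.05 ± 1.25 came largely from staurosporine replicate 5, with a ratio of -4.02 at that number and -0.96 at number 6. The other 4 ratios lay between -0.43 and -0.25. The mean also depended on the scale, at -0.49 with the deposited values and -0.78 after cyclic loess. As deposited, number 5 stood at 0.112 after staurosporine and 0.546 after water. There staurosporine was the higher at number 1, at 0.367 against 0.251, and at number 2, at 0.459 against 0.352. AT3G13120, protein S10 of the plastid ribosome, gave 0.114, 0.183 and 0.245 on staurosporine arrays and 0.227, 0.267 and 0.310 on water arrays. Its mean log2 ratio was -0.64 ± 0.20, and its highest single ratio, -0.02 at number 3, was just inside the rule. Another plastid ribosomal protein gene with a signal on all arrays, AT5G65220, gave 1.55, 1.80 and 2.13 after staurosporine and 1.15, 1.86 and 2.05 after water. Its groups overlapped widely, and with a mean log2 ratio of 0.11 ± 0.49 it is not one of the 67. AT1G29070 and AT1G64510, of the same ribosome, were listed above 0 on 8 and 1 of the 12 arrays and were not eligible.

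Enzymes of metabolism made up the largest class with a stated role, 13 genes, with mean log2 ratios from -1.48 to -0.58. AT3G06200 encodes a guanylate kinase, which makes GDP from GMP. It had 1.18, 1.40 and 1.71 after staurosporine, against 2.94, 3.22 and 6.02 after water. No arrays overlapped, and the log2 ratios in the 3 number pairs were -1.20, -1.89 and -1.33. The other guanylate kinase genes searched for, AT2G41880 and AT3G57550, were not analysed here. AT1G06730, a pfkB-type carbohydrate kinase, a family that phosphorylates sugars and nucleosides, had 1.12, 1.78 and 2.28 after staurosporine and 2.97, 3.92 and 4.10 after water. Its groups did not overlap either, and the mean log2 ratio was -1.16 ± 0.52.

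AT1G30700, a berberine bridge enzyme-like oxidase, an enzyme that oxidises with a bound flavin, had the least spread of all 67 over the number pairs, with log2 ratios of -0.74, -0.80 and -0.80. Its intensities were 0.579, 0.786 and 0.933 after staurosporine, against 1.18, 1.29 and 1.40 after water. AT3G11150, a 2-oxoglutarate and Fe(II)-dependent oxygenase, was next, with 0.450, 0.578 and 0.617 after staurosporine and 0.744, 0.874 and 0.974 after water. Neither gene's groups overlapped, and the mean log2 ratio of AT3G11150 was -0.65 ± 0.092. The remaining enzymes were the alpha/beta hydrolases AT3G02030 (-1.03) and AT5G38360 (-0.60), the galactosyltransferase AT1G11730 (-0.96), the CDP-diacylglycerol synthase AT4G26770 (-0.85), which prepares lipid precursors for phospholipids, AT5G44000 of the glutathione S-transferase family (-0.82), AT4G29120 of the 6-phosphogluconate dehydrogenase family (-0.62) and AT5G64150 of a methyltransferase family (-0.58). In AT4G26770 the 6 ratios ran from -2.75 at number 1 to -0.02 at number 3, so its mean is among the least certain.

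Transport and trafficking genes numbered 4. AT3G25410, a transporter of the BASS family named for bile acid and sodium symport, had a mean log2 ratio of -1.27 ± 0.47, and its dim probe gave 0.0680, 0.171 and 0.196 after staurosporine, against 0.276, 0.331 and 0.435 after water. AT3G02690, an EamA-type transporter, stood at -1.12 ± 0.71. Neither gene's groups overlapped. AT4G32060 encodes MICU, an EF-hand protein that senses calcium and regulates its uptake into mitochondria. It had a bright probe, with 2.58, 2.93 and 3.74 after staurosporine and 3.65, 3.93 and 5.43 after water. The groups overlapped slightly, and the log2 ratio was small but even over the number pairs, at -0.40, -0.63 and -0.56.

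AT1G67930 encodes a COG5-like subunit of the conserved oligomeric Golgi complex, which tethers vesicles within the Golgi. Its intensities were 0.0874, 0.133 and 0.489 after staurosporine, against 0.284, 0.394 and 0.547 after water. The log2 ratio was -0.32 in number pair 1 and 2 and lay at -1.81 and -1.73 in the others, with overlap between the groups. With the deposited values staurosporine was the higher at number 1, at 0.544 against 0.405, and at number 2, at 0.287 against 0.240. This gene was not alone in that, since with the deposited values only 40 of the 67 genes had all 6 ratios below 0. Of the 8 genes listed for this complex, 3 had their own probe and were above 0 on all arrays. The COG3 gene AT1G73430 had all 6 ratios below 0 and a mean of -0.498, which was the closest of all eligible genes outside the rule on the mean. Its staurosporine arrays gave 1.44, 2.27 and 2.62 and its water arrays 2.47, 3.02 and 3.17, with number pairs at -0.14, -0.33 and -1.03. The COG2 gene AT4G24840 gave 0.147, 0.228 and 0.348 on staurosporine arrays and 0.213, 0.287 and 0.338 on water arrays, with ratios on both sides of 0 and a mean of -0.27 ± 0.50. The other 5 genes were not analysed here.

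**Figure D3:**
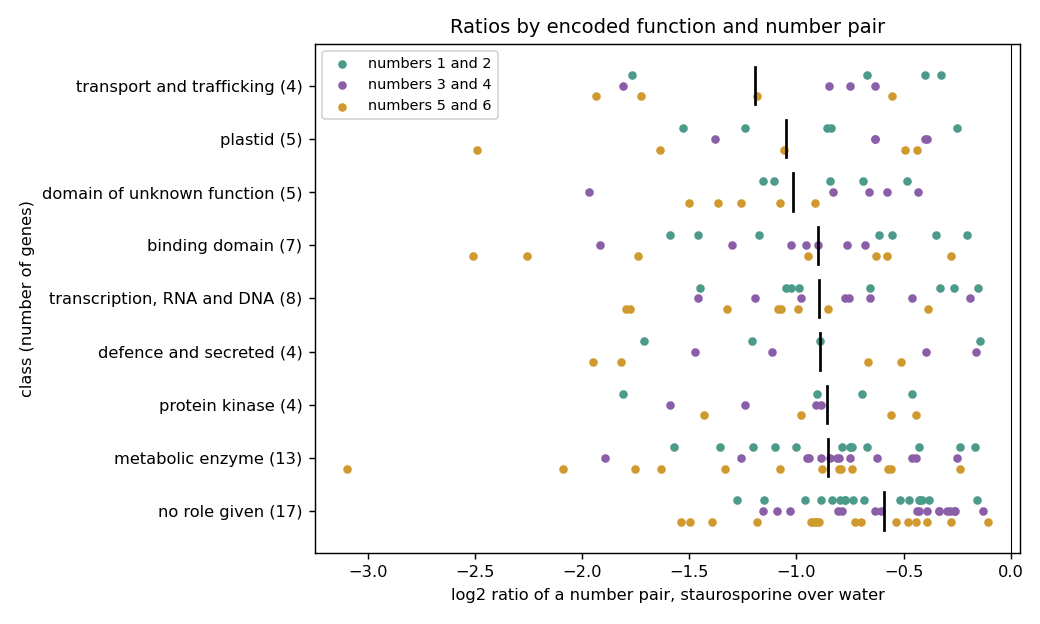
Log2 ratio of staurosporine over water in each number pair (coloured points) for the 67 genes by encoded function, with the number of genes in each class in brackets; black lines are class medians of the mean ratio. Medians of the classes with a stated family or domain lie between -1.19 for transport and trafficking and -0.85 for metabolic enzymes, and genes with no role given have a median of -0.59.

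Genes of transcription, RNA and DNA numbered 8, with mean log2 ratios from -1.11 to -0.67. ERF/DREB-type transcription factors, a large plant family with many members that answer stress, were represented by 2 genes. AT4G31060 had 0.304, 0.429 and 0.547 after staurosporine, against 0.678, 0.831 and 1.25 after water, and a mean log2 ratio of -1.07 ± 0.63 with no overlap. AT1G01250 overlapped, with 0.460, 0.702 and 0.993 after staurosporine and 0.933, 1.35 and 1.69 after water, and its ratio was -0.26 in number pair 1 and 2, against -0.98 and -1.32 in the others. The C2H2 zinc finger gene AT5G01860 stood at -1.11 ± 0.31 and the type IA DNA topoisomerase AT4G31210 at -0.97 ± 0.49. The ERI1-like exonuclease AT3G15140, of a family that trims RNA ends, stood at -0.91 ± 0.23 and the RRM RNA-binding gene AT3G04500 at -0.88 ± 0.43. All were without overlap after quantile normalization, but with the deposited values only AT3G04500 among them was. The pseudouridine synthase gene AT4G21770 (-0.76 ± 0.88) and the OB-fold gene AT1G03810 (-0.67 ± 0.47) overlapped.

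Defence and secreted proteins made up 4 of the 67. Beside AT4G22650 these were AT3G04210, a TIR-NBS protein of the kind that serves in pathogen recognition, at -0.996 ± 0.29, the hydroxyproline-rich glycoprotein gene AT2G46300 at -0.79 ± 0.90 and the thaumatin-like gene AT2G24810 at -0.52 ± 0.36. AT2G46300 showed no overlap between groups, yet its log2 ratio was -1.82 in number pair 5 and 6 and -0.15 and -0.40 in the others. Other binding-domain genes were AT4G32340, a second tetratricopeptide repeat gene (-1.02), AT2G36480 with an ENTH/VHS domain (-0.90), the F-box and kelch repeat gene AT1G22040 (-0.73), AT5G63490 with CBS and PB1 domains (-0.73) and AT4G07670 with a protease-associated domain (-0.53). Beside AT3G50350, the genes known only by a domain of unknown function had mean log2 ratios of -1.16 for AT2G20920, -1.02 for AT2G37880, -0.78 for AT2G21720 and -0.69 for AT2G38070.

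The 17 genes with no role given had the highest class median, that is the smallest decrease, at -0.59. They nevertheless include AT5G66780 and AT5G50350 with mean log2 ratios of -1.28 and -1.13. AT5G66780 was even over the number pairs, at -1.28, -1.16 and -1.40, with intensities of 0.428, 0.487 and 0.772 after staurosporine, against 1.06, 1.21 and 1.72 after water. AT5G50350 had 0.824, 1.13 and 1.29 after staurosporine, against 2.00, 2.37 and 3.02 after water. No arrays of either gene overlapped between the groups, nor did those of AT4G08940 (-0.77), AT3G53470 (-0.64) and AT3G44020 (-0.58). The other 12 genes were AT4G19430, AT2G41950, AT1G11470, AT5G19540, AT5G06010, AT2G31920, AT3G60590, AT3G57440, AT1G32520, AT5G49590, AT1G04330 and AT1G65090, with mean log2 ratios between -0.85 and -0.51 and overlapping groups.

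Genes at the edge of the rule were picked for ratios close to its limits, and so differed little across it in that ratio. Probe signal differed between the 3 genes picked on each side of the limit on the mean, but not beyond them. The 3 genes just inside were dim, with mean normalized intensities over 12 arrays from 0.237 to 0.330. The 3 just outside were bright, from 1.17 to 2.66. The next gene inside, AT4G32060 (-0.53), was bright at 3.68. The next outside with 6 ratios below 0, AT3G50880 (-0.46), stood at 0.488. Just inside the limit on the mean were AT1G65090 (-0.51), AT1G04330 (-0.52) and AT2G24810 (-0.52). AT1G65090 gave 0.108, 0.247 and 0.354 (lowest, median and highest) after staurosporine, against 0.193, 0.330 and 0.438 after water. For AT1G04330 the staurosporine arrays gave 0.155, 0.271 and 0.398 and the water arrays 0.259, 0.388 and 0.497. The thaumatin-like AT2G24810 had 0.129, 0.173 and 0.302 after staurosporine, against 0.243, 0.260 and 0.334 after water. All 3 had overlapping groups and a lower median after staurosporine. AT1G73430 (-0.498), AT3G46950 (-0.49) and AT4G29890 (-0.46) had 6 ratios below 0 and lay just outside it, and 18 eligible genes in all failed in that way. AT3G46950 had 0.702, 1.03 and 1.22 after staurosporine, against 1.12, 1.31 and 1.68 after water. AT4G29890 had 1.59, 2.28 and 2.99 after staurosporine, against 2.64, 2.97 and 3.57 after water. In both the groups overlapped as well. For the sign, AT5G64150, AT3G13120 and AT4G26770 were just inside, with highest single ratios of -0.01, -0.02 and -0.02. AT5G64150 gave 0.179, 0.340 and 0.632 on staurosporine arrays and 0.390, 0.490 and 0.636 on water arrays. AT4G26770 gave 0.0389, 0.209 and 0.292 on staurosporine arrays and 0.258, 0.283 and 0.327 on water arrays. In both genes the highest staurosporine array lay inside the range of the water arrays. AT3G47100, AT3G04650 and AT5G62360 were just outside, with highest ratios of 0.004, 0.02 and 0.04. Intensities of AT3G47100 were 0.169, 0.209 and 0.374 after staurosporine and 0.262, 0.336 and 0.417 after water. Those of AT3G04650 were 0.679, 1.51 and 1.71 after staurosporine and 1.63, 1.77 and 3.32 after water. For AT5G62360 they were 0.249, 0.321 and 0.421 after staurosporine and 0.389, 0.442 and 0.565 after water. Each of the 3 had overlapping groups and a lower median after staurosporine. In all, 26 eligible genes had a mean of at most -0.5 but at least 1 ratio that was not below 0, and in 18 of them it was exactly 1.

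The number pairs did not contribute equally. The median log2 ratio of the 67 genes was -0.77 in number pair 1 and 2, -0.77 in 3 and 4, and -0.95 in 5 and 6, where the medians over the 2584 probes were 0.01, -0.01 and -0.02. The lowest of the 3 pair ratios fell in pair 5 and 6 for 33 genes (49.3%), in 3 and 4 for 18 and in 1 and 2 for 16. Over all 400 probes that met the rule, which include the 67 genes, the share in pair 5 and 6 was much the same, at 51.5%. Both sets were chosen by the same ratios, so nothing is read from that likeness. In 8 genes pair 5 and 6 lay at least 1 log2 unit below the mean of the other pairs. These were AT1G02020, AT4G37230, AT2G46300, AT4G21770, AT3G26580, AT3G02690, AT4G31060 and AT4G32340, and pair 1 and 2 did so in AT4G26770 alone. In 19 genes the 3 pair ratios lay within 0.5 of each other. The SD over the number pairs had a median of 0.364 over the 67 genes, close to the 0.378 over the 400 probes that met the same rule, and of 0.432 over the 2584 probes.

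Probe signal was not part of the rule beyond a value above 0 on every array. The mean normalized intensity over 12 arrays ran from 0.145 for AT3G60590 to 5.93 for AT1G76450, with a median of 0.645, against 0.542 over the eligible genes and 0.546 over the 2584 probes. After staurosporine the median over the 67 genes was 0.421, and after water it was 0.865, where over all 2584 probes it was 0.526 after staurosporine and 0.527 after water. Set against the quartiles of the 2584 probes, 17, 10, 20 and 20 of the 67 genes fell in quartiles 1 (dimmest) to 4 (brightest), or 25.4%, 14.9%, 29.9% and 29.9%, against 27.8%, 23.0%, 25.4% and 23.8% of the eligible genes. Of the eligible genes, 12 had a brighter probe than AT1G76450, the brightest of the 67. At a mean intensity of 2 or more there were 34 eligible genes, and 6 of them were among the 67. Across the 67 genes signal and mean ratio were hardly related, with a Spearman correlation of -0.09 over values that share the same 12 arrays.

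**Figure D4:**
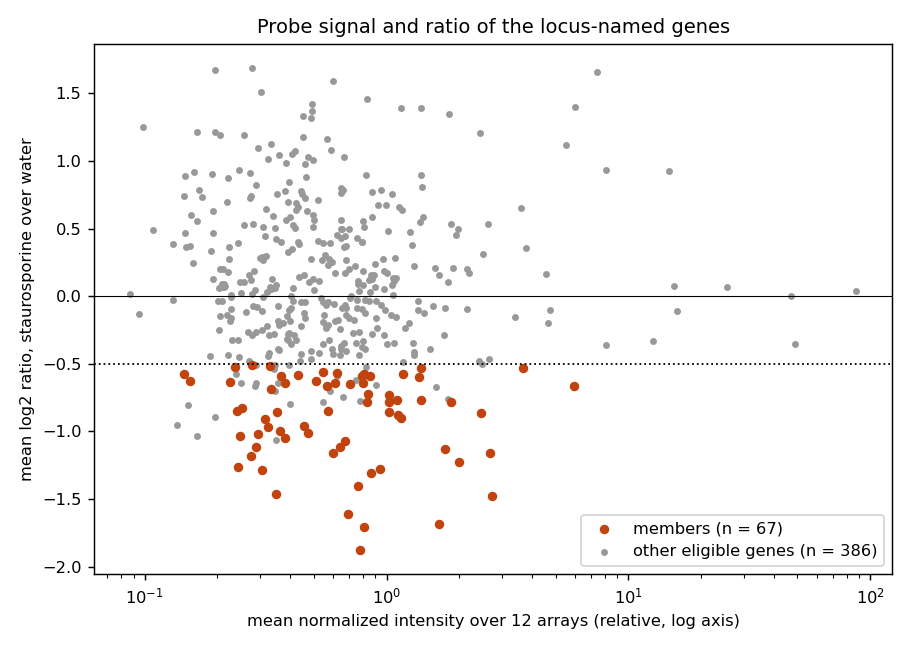
Mean log2 ratio of staurosporine over water against mean normalized intensity over 12 arrays (relative, log axis) for the 67 members and the other 386 eligible genes; the dotted line is the limit of -0.5. Members spread from 0.145 to 5.93 in intensity, and grey points under the line have at least 1 ratio that is not below 0.

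The 67 genes lie on all 5 nuclear chromosomes, as their locus codes show, with 15, 10, 18, 12 and 12 genes on chromosomes 1 to 5. Of the eligible genes of chromosome 3, 21.2% were among the 67, and of those of the other chromosomes between 12.2% and 14%. All 67 are protein-coding in the RefSeq gene table of TAIR10.1, and 0 pairs of them lie within 5 protein-coding genes of each other. Their median gene length there was 2030 bases, against 2096.5 bases over the 452 eligible probes whose gene matched the table, all but that of AT1G03660. Length and mean ratio had a Spearman correlation of -0.17 across the 67 genes.

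The scale chosen between arrays moved all ratios. The median of the mean log2 ratios over the 2584 probes was 0.15 with the deposited values, -0.02 after quantile normalization, -0.004 after cyclic loess and -0.14 with median-centred arrays. The median over the 67 genes lay -0.87, -0.83, -0.78 and -0.87 from these in the same order. All 67 genes had a mean ratio below 0 on each of these 4 scales, but without further normalization 39 of them met the whole rule, against 63 with centring and 59 with cyclic loess. Under all 4 scales 38 genes met it. AT2G24810, AT3G60590, AT1G65090 and AT1G11470 came closest to 0 without normalization, with means of -0.10, -0.13, -0.13 and -0.16.

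**Figure D5:**
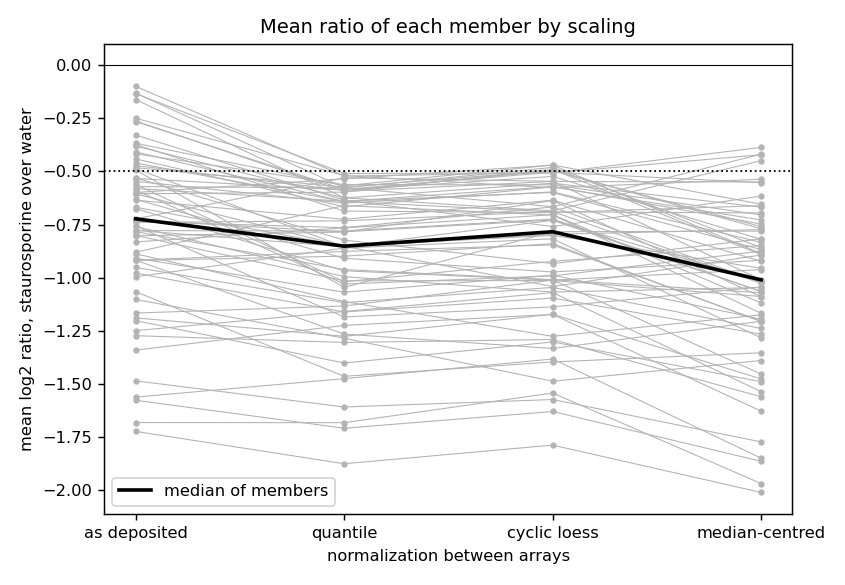
Mean log2 ratio of staurosporine over water of each of the 67 genes (grey lines) with the deposited values and after 3 ways of scaling between arrays; the black line is their median and the dotted line the limit of -0.5. All lines stay below 0, and the median runs from -0.72 with the deposited values to -1.01 with arrays centred on their medians.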

How the data were processed

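The authors deposited 1 table of linear intensity per probe and array. How they were made is not given in the sources used. Groups and replicate numbers come from the sample titles, and all 12 columns were used. Intensities were quantile normalized (limma 3.58.1, R 4.3.3). Log2 ratios were taken without an offset, since all members were above 0 on all arrays. For the test across 3439 probes, normalized values under the 1st percentile of the positive values of an array were raised to it, and limma (lmFit, eBayes, 2-sided, no block) was run on 6 against 6 arrays with Benjamini-Hochberg adjustment. It was tested on simulated data with known changes, in which all arrays were drawn independently. The likeness of arrays within a number pair was not simulated, so that test does not cover it. The number of arrays limits the precision.

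Deviations of same-numbered arrays from their groups correlated across groups at 0.159 to 0.273. No value for arrays of different number is given beside these, so they do not show that the numbers pair the arrays. Pairing by number is that of the selection rule. The members, lists and tests were chosen with earlier results of these data known. Genes given array values are the 8 of lowest mean ratio, the 6 brightest, the 4 most even, those on a related list and those at the edges of the rule; others were added after their values were seen, for their role. Related lists were subunits of the COG complex, guanylate kinases, copper amine oxidases and plastid ribosomal proteins. Of the copper amine oxidases, only AT2G42490 had a probe of its own here, and it was above 0 on 11 of 12 arrays and so not eligible. Functions come from background knowledge, not from the gene table as planned, so class counts over all eligible genes were not made, and promoter motifs were not searched. Alternatives were other scalings, other limits, averaged number pairs, a block and arrays left out.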

Additional observations from a re-analysis of the deposited data

Results flagged for a closer look

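In 134 groups of 6 arrays (67 genes, each in the staurosporine and the water group), 1 array stood far from the other 5 in 3 cases, where chance alone gives about 1 group in 20. All 3 were water arrays. For AT3G04210, the TIR-NBS gene, water replicate 2 was low, at a normalized intensity of 0.345, and the next array of its group stood at 0.472. For AT5G44000, of the glutathione S-transferase family, water replicate 1 stood at 0.533 and the nearest at 0.306. For AT1G22040, the F-box and kelch repeat gene, water replicate 4 stood at 1.85 and the nearest at 1.27.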

How the results depend on the processing

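The rule gave 67 genes. It gave 44 without further normalization, 30 where every staurosporine array had to lie below every water array, and 23 with a limit of -1. With arrays centred it gave 94 (63 of the 67 among them), with the 3 number pairs in place of 6 numbers 83, and leaving out each replicate number in both groups it gave 65 to 78. Without number pair 1 and 2, 3 and 4, or 5 and 6 it gave 75, 90 and 75, of which 61, 61 and 57 were among the 67. The median of the mean log2 ratios was -0.85, with -0.72 on deposited values and -1.01 with centring, and between -0.88 and -0.79 with a replicate number left out. Of the 67 genes, 51 passed in limma as lower. With the replicate number as a block (a replicate block) 51 passed too, and 393 of all probes in place of 407. Averaging the number pairs left 0 of the 67 and 5 of all probes as lower, and 0 and 2 with the number pair as a replicate block as well. Averaging leaves 3 samples in each group, and at an unadjusted p under 0.05 it gave 39 of the 67 beside 9.74% of all probes as lower, or 35 beside 9.16% with that block, with the 67 selected on the same ratios. Without further normalization 31 of the 67 and 223 of all probes passed; the cause was not tested. Leaving out 1 array gave 34 to 50 of the 67, with 34 without staurosporine replicate 5 or water replicate 4, and 315 to 400 of all probes. On the other scales tried, the mean ratios of all 67 genes stayed below 0. With replicate numbers left out they could not do otherwise, since the rule required all 6 ratios to be below 0.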
